A study of Mus musculus with 2 samples.

Results

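The genes described here encode the nuclear subunits and assembly factors of respiratory complex I. They were taken by symbol: names starting with Nduf, then a, b, c, s, v, ab or af and a number, on rows that the platform annotation ties to exactly 1 gene, with the rows of a gene averaged. This gave 43 of the 19938 genes measured in the series, namely 6 core subunits, 30 genes of the accessory group and 7 assembly factors. The measurement compared KSL cells, the bone marrow cells that are positive for c-Kit and Sca-1 and negative for lineage markers, from Nrf2-/- and Nrf2+/+ mice on the C57BL/6J background. The mice were healthy and 8 to 10 weeks old, with no treatment named, and lived in a facility labelled germ-free. Marrow of 5 mice was pooled per genotype before sorting, and 1 RNA pool per genotype was run on 1 Affymetrix Mouse Gene ST 1.0 array, so 2 arrays stood for 10 mice. No difference has a replicate check and none was tested; array, amplification and genotype cannot be told apart, and in a pool of sorted cells fewer cells of a type and less RNA per cell cannot be told apart either.

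Complex I is the first and largest enzyme of the respiratory chain. It oxidises NADH on its matrix arm, passes the electrons along flavin and iron-sulfur clusters to ubiquinone, and pumps protons through its membrane arm. The core subunits carry out catalysis and are conserved from bacteria; the core subunits of the membrane arm are encoded in mitochondrial DNA. Accessory subunits surround the core and are needed for its stability, and assembly factors help to build the enzyme without staying in it. Complex I is also a source of superoxide. Haematopoietic stem cells are known for relying little on respiration while they are quiescent. NRF2, encoded by Nfe2l2, binds antioxidant response elements in DNA and drives genes that remove oxidants. It is a different protein from GABP, which is also called nuclear respiratory factor 2 and, like nuclear respiratory factor 1, is known to drive genes of the respiratory chain.

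All values are log2 intensities, and each difference is the knockout value minus the wild-type value. A gene passed the level filter when its mean over both arrays reached 6.57, the median over genes, as 9970 genes did. Over these genes the differences had a median of −0.02 and an SD of 0.33. The disagreement between probe sets, taken from 515 genes that had exactly 2, put an error on a difference of 0.32 as an SD and 0.17 by a robust estimate; it leaves out the spread between animals and preparations. Nfe2l2 itself stood at 9.07 in knockout cells against 9.16 in wild type, so its level did not show the knockout, and the labels do not name the deleted part. The gate marker Kit was high on both arrays, at 11.21 and 10.93, whereas the row for Sca-1, Ly6a, was not analysed here. Of the markers of stem or progenitor cells, Kit included, 5 passed the filter. In the knockout array 4 of them were higher and 1 lower, with a median difference of 0.14. Of 14 markers of mature neutrophils, 12 passed the filter, all of them lower in the knockout array, with a summed linear intensity of 7189.5 against 17176 and a median difference of −1.63. Levels of these 12 ran from 5.36 to 11.30 in knockout and from 7.75 to 12.25 in wild-type cells. Retnlg, Mmp8 and Cxcr2, at 5.36, 5.74 and 6.19 in knockout cells, passed the filter only through their wild-type values. Below the filter, Ly6g was higher in the knockout array, at 5.41 against 4.90, and Mmp9 lower, at 5.87 against 6.69. Monocyte and macrophage markers were lower for 5 of 6 past the filter, with a median difference of −0.73. Their summed linear intensities were 1287 in knockout and 1599 in wild-type cells. These sums include Cd68, the 1 higher marker and the brightest of the 6 on both arrays, at 9.31 against 8.68. Of the 5 lower markers, Ccl6 and Fn1 also passed only through their wild-type values, with 6.51 and 6.41 in knockout cells. B lineage, T and NK cell, and erythroid markers had 3, 2 and 2 members past the filter, with medians of −0.20, −0.30 and −0.24. The part of these cells in the differences below was not tested.

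Complex I genes were more often lower in the knockout pool, by small amounts. Of the 43 genes, 41 passed the filter, with 32 lower and 9 higher; over all genes past the filter, 52.9% were lower. The median of the 41 differences was −0.20, against −0.02 over all genes and −0.02 over the 5571 genes within the same range of levels. The middle 50% of members lay between −0.33 and −0.05, and that of all genes between −0.20 and 0.14. At least 1.5-fold lower were 2 members, Ndufb3 and Ndufaf1, beside 4.3% of all genes; 2 of 41 is close to that share. No member was at least 1.5-fold higher (2.34% of all genes were), and 0 members were 2-fold lower or 2-fold higher, beside 0.762% and 0.411% of all genes. By a smaller size, 13 members were lower by at least 0.3 and 0 were higher by as much, against 16.1% and 10.6% of all genes.

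**Figure D1:**
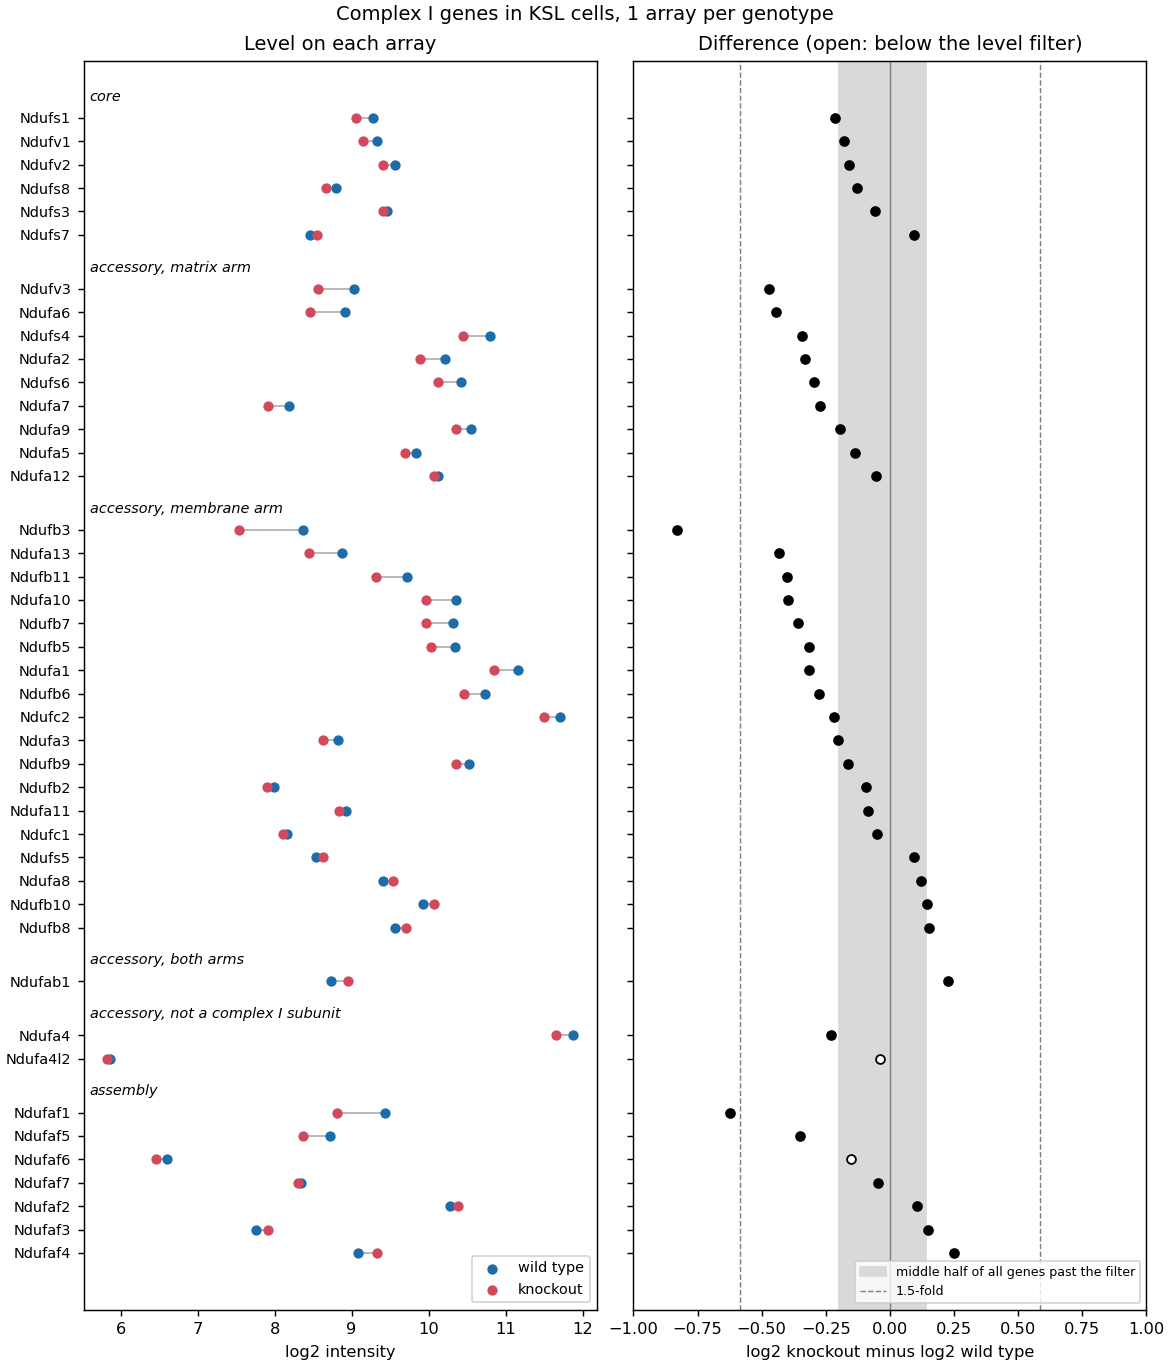
Complex I genes by role. Left, log2 intensity of each gene on the wild-type (blue) and knockout (red) array; right, the log2 difference, with the middle 50% of all genes past the filter in grey, dashed lines at 1.5-fold, and open circles for the 2 genes below the filter. Ndufb3 and Ndufaf1 lie beyond the 1.5-fold line, and 9 filled circles lie to the right of 0.

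The core subunits measured here all belong to the matrix arm, and 5 of 6 were lower, with a median of −0.14. In the NADH-oxidising tip, Ndufv1, which binds the flavin and NADH, stood at 9.15 in knockout cells against 9.33 in wild type, a difference of −0.18. Its partner Ndufv2, an iron-sulfur protein, stood at 9.40 against 9.56. Ndufs1, the largest iron-sulfur subunit, was at 9.06 against 9.28, the lowest difference of the core at −0.21. Towards ubiquinone, the iron-sulfur subunit Ndufs8 stood at 8.67 against 8.80 and Ndufs3, a structural subunit, at 9.40 against 9.46. Ndufs7, which holds the last iron-sulfur cluster before ubiquinone, was the exception, at 8.56 against 8.46, a difference of 0.09. Each of these 6 differences was smaller than the probe-set SD of 0.32, while those of Ndufs1 and Ndufv1 exceeded the robust estimate of 0.17. Both probe sets of Ndufs3 were slightly lower, by −0.05 and −0.07. The 7 mitochondrially encoded core subunits were not analysed here.

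Accessory genes were lower for 24 of 29 past the filter, with a median of −0.23. Among them, all 9 accessory subunits of the matrix arm were lower, with a median of −0.29 and a range from −0.47 to −0.05. Ndufv3, which sits beside the flavin-binding subunit, stood at 8.57 in knockout cells against 9.04 in wild type, a difference of −0.47. Ndufa6, a LYR-motif protein that anchors the acyl carrier protein to the matrix arm, stood at 8.46 against 8.91, a difference of −0.45. Ndufs4, whose loss in mice gives a model of Leigh syndrome, was at 10.45 against 10.79, and the small subunit Ndufa2 at 9.89 against 10.22, differences of −0.34 and −0.33. The zinc-binding Ndufs6 differed by −0.29, Ndufa7 by −0.27, Ndufa9, which lies near the ubiquinone site, by −0.20, Ndufa5 by −0.14 and Ndufa12 by −0.05. The wild-type value was thus the higher of the pair for each of the 9, while the sizes spread from near 0 to just under 0.5.

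Accessory subunits of the membrane arm were lower for 14 of 18, with a median of −0.21 and a wider range, from −0.83 to 0.15. Ndufb3, a small subunit of the distal membrane arm, had the lowest difference of all members: 7.53 in knockout cells against 8.36 in wild type, which puts the knockout at 56.2% of wild type and the difference at −0.83. Of all genes past the filter, 1.57% had a lower difference. Its promoter is shown because it belongs to the member that differed most. The 250 bases before its start site in RefSeq's annotation of GRCm38.p6, at chr1:58586147-58586396 on the plus strand, hold none of the motifs searched below on either strand.
Ndufb3: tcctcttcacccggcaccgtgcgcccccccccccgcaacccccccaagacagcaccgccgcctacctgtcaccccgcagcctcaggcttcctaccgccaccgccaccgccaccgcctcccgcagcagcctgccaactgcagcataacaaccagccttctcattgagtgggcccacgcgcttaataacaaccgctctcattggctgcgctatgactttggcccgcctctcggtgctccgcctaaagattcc

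6 further membrane-arm subunits differed by at least 0.3, all in the same direction. Ndufa13, also known as GRIM-19 and studied for a part in cell death, stood at 8.44 against 8.87, a difference of −0.43. The X-linked Ndufb11 stood at 9.32 against 9.72, and its 2 probe sets gave −0.43 and −0.37. Ndufa10, on the matrix face of the membrane arm, was at 9.97 against 10.36, a difference of −0.40, and Ndufb7, which faces the intermembrane space, at 9.96 against 10.32, a difference of −0.36. Ndufb5 stood at 10.03 against 10.35, a difference of −0.315, and the X-linked Ndufa1 at 10.85 against 11.16, a difference of −0.31. Differences between −0.28 and −0.05 were found for Ndufb6, Ndufc2, Ndufa3, Ndufb9, Ndufb2, Ndufa11 and Ndufc1. The probe sets of Ndufa11 gave −0.15 and −0.02, while those of Ndufc1 disagreed in sign, at 0.06 and −0.16. Higher in the knockout array were 4 genes: Ndufs5 at 8.63 against 8.53, Ndufa8 at 9.53 against 9.41, Ndufb10 at 10.07 against 9.93 and Ndufb8 at 9.71 against 9.56. Ndufs5, Ndufa8 and Ndufb10 all face the intermembrane space and carry twin cysteine motifs, as does Ndufb7, which differed the other way; this grouping was noticed after the values were seen. The membrane-arm members Ndufb1 and Ndufb4 were not analysed here.

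The accessory gene with the highest difference was Ndufab1, the mitochondrial acyl carrier protein, which also serves fatty acid synthesis and iron-sulfur cluster assembly. It stood at 8.96 in knockout cells against 8.73 in wild type, a difference of 0.23, with 0.22 and 0.23 in its 2 probe sets. Of the 5 members with 2 probe sets, 4 had the same sign in both, and the probe sets lay at most 0.23 apart. RefSeq names a second locus for Ndufa11, Ndufa12, Ndufab1, Ndufs5 and Ndufs6, so that their probes may also catch a near-identical copy; without these 5 genes the median of the remaining 36 members was −0.21. Ndufa4 and Ndufa4l2 match the symbol pattern and were counted as accessory, although NDUFA4 is now known as a subunit of cytochrome c oxidase. Ndufa4 stood at 11.65 against 11.88, a difference of −0.23. Its hypoxia-induced relative Ndufa4l2 lay below the filter at 5.82 against 5.86.

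Assembly factors did not share a direction. Of the 7 Ndufaf genes 6 passed the filter, 3 lower and 3 higher, with a median of 0.03 and a mean of −0.09; without Ndufaf1 the median was 0.10. Ndufaf1, a member of the MCIA complex that builds the membrane arm, stood at 8.81 in knockout cells against 9.43 in wild type, which puts the knockout at 64.9% of wild type and the difference at −0.62. Ndufaf5, which hydroxylates the core subunit NDUFS7, was at 8.37 against 8.72, a difference of −0.35. Ndufaf7, a mitochondrial arginine methyltransferase, was at 8.30 against 8.35. The higher genes were Ndufaf2, a relative of NDUFA12 that acts late in assembly, at 10.38 against 10.28, and the interacting pair Ndufaf3 and Ndufaf4, which stay with the early ubiquinone-binding module, at 7.91 against 7.76 and 9.33 against 9.08. Ndufaf4 had the highest difference of all members, 0.25. Ndufaf6 lay just below the filter, at 6.45 against 6.60. With this gene counted, or with the stricter filter at the 75th percentile of levels, the median of assembly factors was −0.05, so the group has no settled sign.

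The promoters of the lowest and the highest assembly factor are shown for contrast, as the 250 bases before the start site in GRCm38.p6. That of Ndufaf1 lies at chr2:119662835-119663084 on the minus strand, and that of Ndufaf4 at chr4:24897833-24898082 on the plus strand. Capitals mark a GABP motif in Ndufaf1, and, from left to right, an antioxidant response element core and overlapping nuclear respiratory factor 1 motifs in Ndufaf4.
Ndufaf1: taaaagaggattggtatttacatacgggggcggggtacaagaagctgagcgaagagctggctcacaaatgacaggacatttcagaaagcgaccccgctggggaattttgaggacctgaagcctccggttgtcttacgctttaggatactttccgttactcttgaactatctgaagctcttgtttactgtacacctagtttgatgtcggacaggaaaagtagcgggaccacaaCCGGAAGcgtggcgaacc
Ndufaf4: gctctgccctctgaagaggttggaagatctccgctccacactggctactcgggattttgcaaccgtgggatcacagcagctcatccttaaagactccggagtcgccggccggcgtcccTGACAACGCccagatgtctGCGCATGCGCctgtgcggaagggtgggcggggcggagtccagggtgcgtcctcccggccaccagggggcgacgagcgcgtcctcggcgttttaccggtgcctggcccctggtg

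Assembly factors with other names gave a similar picture. Of 12 listed, 11 were measured and passed the filter, with 4 lower, 7 higher and a median of 0.03. Nubpl, which delivers iron-sulfur clusters to complex I, stood at 7.61 in knockout cells against 6.49 in wild type, a difference of 1.12, and was the 1 gene of the list at least 2-fold higher. Its wild-type value lay below the filter level, where weak signal makes the size less sure. Tmem126b, a partner of NDUFAF1 in the MCIA complex, differed in the other direction, at 7.70 against 8.20, or −0.50. The MCIA partners Ecsit and Acad9 stood at 7.27 against 7.24 and 7.89 against 7.82. Tmem70, known for its part in ATP synthase and complex I assembly, stood at 7.20 against 7.59. Low values were thus found for some MCIA genes and not for others.

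The promoters were searched for motifs of NRF2 and of known regulators of respiratory genes. RefSeq windows of 300 bases, from 250 before to 50 after the start site in GRCm38.p6, were at hand for 38 of the 43 members and for 27025 genes in all. The letters were TGACNNNGC for the antioxidant response element core, GCATGCGC for nuclear respiratory factor 1, CCGGAAG for GABP and AAGGTCA for the ERR receptors, each on both strands. The antioxidant response element core was matched in 9 members, 23.7%, and in 14.0% of all genes. The nuclear respiratory factor 1 letters were matched in 5 members, 13.2%, against 3.05% of all genes; GABP also in 5, against 9.93%; and ERR in 2, or 5.26%, against 5.38%. The members' windows were richer in G and C, with a median of 59.0% against 52.8%. Among the 3982 genes with a G and C content between 55.8% and 61.0%, the shares were 17.3%, 5.35%, 15.4% and 4.32%, in the same order. The members' share was below this for GABP and above it for the antioxidant response element core and nuclear respiratory factor 1. For ERR it was slightly above, on 2 members only. In Ndufs5 the ERR letters lie within the antioxidant response element core, so the same bases count for both motifs. Members with an antioxidant response element core had a median difference of −0.16 and those without one −0.20. A match describes letters and does not show binding.

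**Figure D2:**
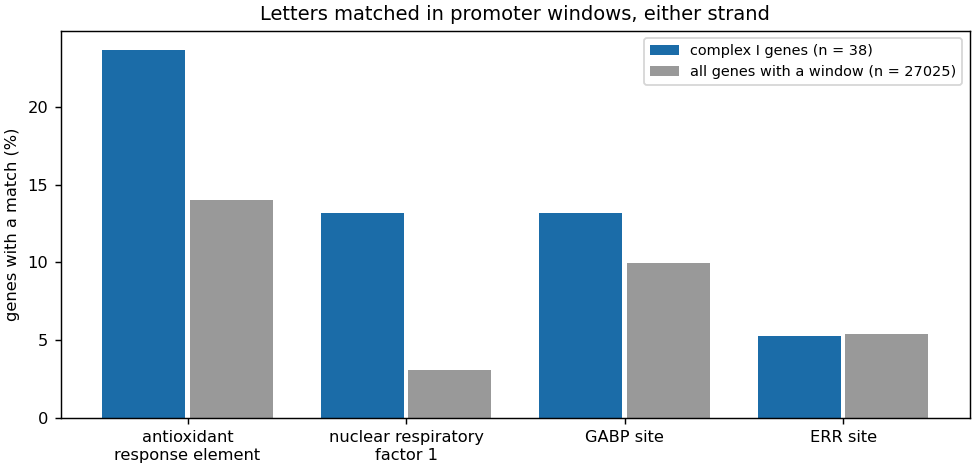
Share of complex I genes (blue) and of all genes with a promoter window (grey) whose 300-base window holds each motif on either strand. The blue bar is higher for nuclear respiratory factor 1, 13.2% against 3.05%, and for the antioxidant response element, 23.7% against 14.0%, slightly higher for GABP, and level for ERR. The grey bars are not matched for G and C content. Among genes of similar content the shares were 5.35% for nuclear respiratory factor 1, 17.3% for the antioxidant response element, 15.4% for GABP and 4.32% for ERR.

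Matches to the antioxidant response element core that lie before the start site are shown because NRF2 is known to bind this element. Each line is read in the direction of the motif, capitals mark the core, and the coordinates are in GRCm38.p6. Ndufa1 lies at chrX:37191325-37191353 (plus strand), Ndufa7 at chr17:33824524-33824552 (plus strand), Ndufa9 at chr6:126849154-126849182 (minus strand), Ndufv2 at chr17:66101609-66101637 (plus strand), Ndufs5 at chr4:123718396-123718424 (minus strand), Ndufaf3 at chr9:108567578-108567606 (plus strand) and Ndufaf4 at chr4:24897941-24897969 (plus strand).
Ndufa1: ccacggagtgTGACGACGCgaagcggtcc
Ndufa7: tagtcggctcTGACCACGCctcactttcg
Ndufa9: agataccattTGACCCCGCgttgttgccg
Ndufv2: acgccgttccTGACGCAGCggcgcgcgag
Ndufs5: ttctcgagtgTGACCTTGCtcaagtagca
Ndufaf3: cgagtgggacTGACTGGGCcaaaccggac
Ndufaf4: ccggcgtcccTGACAACGCccagatgtct

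Of these 7 genes, Ndufa1 differed by −0.31, Ndufa7 by −0.27, Ndufa9 by −0.20 and Ndufv2 by −0.16, while Ndufs5, Ndufaf3 and Ndufaf4 differed by 0.10, 0.15 and 0.25. In the other 2 matched members, Ndufa10 and Ndufa11, the core lies after the start site. The genes with a core upstream thus fell on both sides of 0, the 4 lower ones being core or accessory subunits and 2 of the 3 higher ones assembly factors, a split noticed after the values were seen.

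The shift of complex I was set beside that of related mitochondrial genes. The 38 subunits of complexes II to V past the filter had a median of −0.18, with 30 lower and 8 higher, close to the −0.20 and 32 of 41 of complex I. Their range was narrower, from −0.34 for Cox4i1 of cytochrome c oxidase to 0.31 for Uqcrq of complex III. Mitochondrial ribosomal proteins had a median of −0.11 over 71 genes, with 45 lower, from Mrpl48 at −0.87 to Mrpl9 at 0.75. Of 15 genes of iron-sulfur cluster assembly, which supplies the clusters of the core subunits, 10 passed the filter, 7 of them lower, with a median of −0.11; the extremes were Bola3 at −0.72 and Isca1 at 0.20. Regulators of mitochondrial biogenesis had a median of 0.04 and a mean of −0.0099 over 15 genes, with 7 lower and 8 higher. Tfam, which packages and transcribes mitochondrial DNA, stood at 8.50 against 8.92, a difference of −0.42, and the coactivator gene Pprc1 at 8.62 against 8.19, a difference of 0.43. Gabpa stood at 10.24 against 10.34, a difference of −0.10, and Nrf1 at 7.16 against 7.33, a difference of −0.17. Beside the 52.9% of all genes that were lower, the 45 of 71 mitochondrial ribosomal genes make 63.4%; whether the lists differ from each other was not tested, since there is 1 array per genotype.

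**Figure D3:**
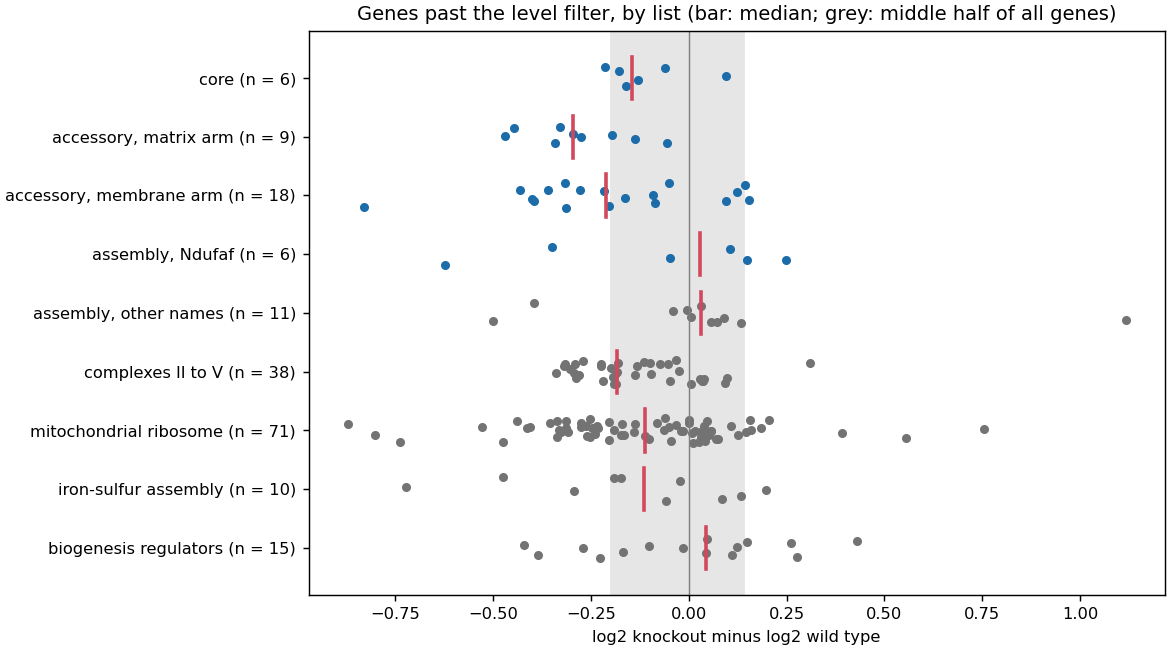
Log2 difference of each gene past the filter, by list, with the list's median as a red bar and the middle 50% of all genes in grey; complex I lists are in blue. The 9 matrix-arm accessory genes lie left of 0, the medians of core, accessory and complex II to V genes lie between −0.29 and −0.14, and those of both assembly factor lists are 0.03.

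Core and accessory genes were also compared under each processing choice. The accessory median lay between −0.28 and −0.21 and the core median between −0.15 and −0.11 under the choices that did not split the genes by level. The order of these class medians did not hold below a mean level of 10. All 6 core genes had a mean level between 8.51 and 9.48. The 16 accessory genes with a mean level below 10 spanned a wider range, from 7.95 to 9.997. Their median was −0.11, close to the −0.14 of the core. Whether the order of the classes depends on level was not tested. The 13 accessory genes at 10 or above had a median of −0.29 and were all lower in knockout cells; this split was chosen after seeing the data. The median of all complex I genes less that of all genes ranged from −0.19 to −0.14.

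**Figure D4:**
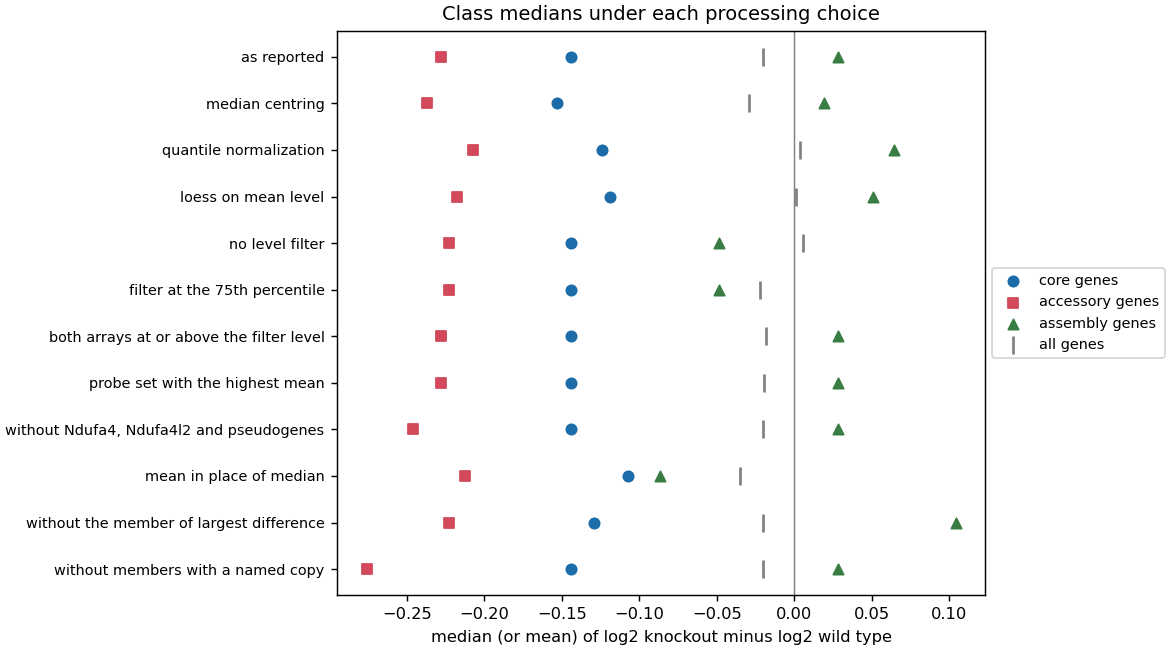
Median difference (mean in the row so named) of core, accessory and assembly genes and of all genes under each processing choice. Core and accessory points stay left of 0 in each row, while the assembly point crosses 0 in 3 rows.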

How the data were processed

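Total RNA of sorted KSL cells was isolated with the RNeasy micro kit, then amplified and labelled with NuGEN Ovation kits, per the labels' protocols. Values are log2 intensities as deposited by the authors, 1 per probe set and array. The submitters' processing notes name Partek; neither normalization nor probe summary is given in the sources used here, and the log base was taken from the values, which reach 13.8. The sorted values of both arrays lie within 0.087 of each other, so a shift of all genes could not be seen. Of 28853 probe sets, 21789 had 1 gene symbol, 1621 several and 5443 none; 3 rows with several Nduf symbols were left out. Entrez IDs matched RefSeq for 21698 and changed 0 symbols. No further scaling was applied. With 1 array per genotype no test was run, and the number of arrays limits the precision.

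Each member is named; both values are given for every core and Ndufaf gene, for differences of at least 0.30, and for others where a sentence turns on them. Of the comparison lists, the extremes and genes tied to complex I biology are named. Members, lists and motifs were chosen with earlier results of these data known. The summary functions were tested on simulated arrays with planted differences and no added noise. This checks the arithmetic and not the error of the values here. Python 3.11.15, numpy 2.4.6, pandas 2.3.3, statsmodels 0.14.6 and matplotlib 3.10.9 were used.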

Additional observations from a re-analysis of the deposited data

How the results depend on the processing

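Planned choices were median centring, quantile normalization, loess on level, the level filter, the probe set of highest mean, means, and leaving out single or wrongly named members; leaving out members with a named copy, a background of genes within the members' range of levels, and the accessory genes of mean level below 10 were chosen after seeing the data. Summary values of complex I, complexes II to V and mitochondrial ribosomal genes under these choices numbered 113. Of these, 106 kept their sign and moved by less than 0.1, or within 1.5 times for counts. Some could not move, such as the core median where only accessory genes were left out. The accessory median below level 10 was −0.11 in place of −0.23. The assembly median turned negative, at −0.048 with no filter and with the 75th percentile filter, and at −0.086 as a mean. Under these filters 1 gene enters or leaves a group of 6. The mean includes Ndufaf1 at −0.62, the largest difference of the group, and a mean without this gene was not computed. Outside these 113 values, the median of biogenesis regulators turned to −0.029 under the stricter filter and −0.0099 as a mean, and the cause was not tested. The count of members at least 1.5-fold apart was 1 in place of 2 under the stricter filter, which drops Ndufb3, and also 1 without Ndufb3, and was 0 at 2-fold. Of 172 member values under another scaling or probe-set choice, 0 changed sign. Ndufc1 alone moved by more than 0.1, to −0.16 with its brighter probe set. Much of this was fixed beforehand. Only 5 members have 2 probe sets, so the probe-set choice could not move the others. Median centring shifts all genes alike, and the sorted arrays lie within 0.087 of each other, which bounds quantile normalization. No paired analysis was possible because each genotype has 1 array. The 2 arrays set no limit on how far other pools would differ.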

Other observations

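Respiratory complexes II to V were lower in similar proportions. Succinate dehydrogenase, complex II, had 4 of 4 genes lower, with a median of −0.19, from Sdhd at 7.98 against 8.20 to Sdha, its flavoprotein, at 10.24 against 10.26. Complex III had 7 of 9 lower and a median of −0.19, with the Rieske iron-sulfur protein Uqcrfs1 at 8.85 against 9.15 and the hinge protein Uqcrh at 11.10 against 11.42. Complex IV had 7 of 10 lower and a median of −0.10, with Cox7a2 at 9.65 against 9.93. Complex V had 12 of 15 lower and a median of −0.18, while Atp5a1 and Atp5b were level, at 0.03 and −0.03.

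Among complex I genes, lower values outnumbered higher ones in each band of mean level, most of all at 10 or above and least between 9 and 10. Of 14 members with a mean level of at least 10, 13 were lower, with a median of −0.29, whereas 52.5% of the 945 genes of that level were lower, with a median of −0.01. Of 11 members between 9 and 10, 7 were lower, with a median of −0.14, and of 16 below 9, 12 were lower, with a median of −0.11; 53.5% and 53.7% of genes at those levels were lower. The bands were chosen after seeing the data, and the difference between them was not tested.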
